A study of Mus musculus with 9 samples.

Results

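The subject is the transcriptome at rest of regulatory T (Treg) cells from wild-type donors, as read by the 5 arrays labelled wild type out of 9 arrays in the series. The other 4 arrays hold Treg cells that lack the Hippo kinases Mst1 and Mst2, and no level is compared with them here. All donors were on the C57BL/6 background with a YFP-Cre fusion expressed from Foxp3. The wild-type donors had no loxP-flanked allele, so Cre was present in these cells without a target. Marrow of such donors, which carries CD45.2, was mixed 1:1 with wild-type CD45.1 marrow and given to Rag1-/- recipients, which make no T or B cells of their own. After 2 months, CD4 T cells that were YFP-positive, CD45.2-positive and CD45.1-negative were sorted, so the gate selected cells that transcribe Foxp3. The labels give no sorting day and do not say that the samples came from separate mice, and the spread between arrays may therefore be partly technical. Each gene was represented by 1 probe set with a single gene symbol, the brightest over all 9 samples. This gave 22180 genes, which were ranked by their mean log2 value over the 5 arrays and by the standard deviation (SD) over them.

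Treg cells form the branch of CD4 T cells that holds immunity in check and keeps the body tolerant of its own tissues. Foxp3 is the transcription factor that fixes this fate. Treg cells hold high amounts of the interleukin-2 receptor and depend on interleukin 2 that other cells secrete, since Foxp3 shuts off their own. They act through surface molecules such as Ctla4, through the enzymes Entpd1 and Nt5e that turn extracellular ATP into adenosine, and through cytokines such as interleukin 10 and transforming growth factor beta. Resting lymphoid Treg cells resemble naive T cells, whereas activated, or effector, Treg cells switch on factors such as Prdm1, Batf and Maf and the receptors that take them into tissues.

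Values are log2 intensities after robust multi-array averaging (RMA), which brings the arrays to a common distribution. They ran from 1.32 to 12.91 over the 5 arrays, with array medians between 3.99 and 4.08. Over all genes the pairs of arrays correlated at 0.9916 (arrays 2 and 5) to 0.9956 (arrays 4 and 5), which describes how alike the arrays are and shares all genes between the pairs. As a level of no signal, the 95th percentile of the means of 1390 olfactory and vomeronasal receptor genes was taken. It lay at 4.16, and 10895 of 22180 genes (49.1%) had a mean above it. This is a convention and no detection test. It left 70 of the 1390 chemosensory genes above the level by construction, and 1 of them, Vmn1r233, reached 11.53. Signal also depends on the sequence and number of a gene's probes, so an order of genes is an order of probe set signal and not of transcript number. In sorted bulk samples, fewer cells of a type and less RNA per cell cannot be told apart.

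The 4 defining markers were high in every array. Foxp3 read 10.67, 10.67, 10.66, 10.74 and 10.77 in arrays 1 to 5, with a mean of 10.70 ± 0.05 (SD, n = 5), rank 83 among all genes. Ikzf2, which encodes the Treg transcription factor Helios, read 9.85, 10.07, 9.92, 10.10 and 10.23. Il2ra, the high-affinity chain of the interleukin-2 receptor, read 9.92, 9.67, 9.97, 9.73 and 9.85. All 3 were far above the background level in every array. Ctla4, the inhibitory receptor that removes CD80 and CD86 from other cells, read 9.20, 9.28, 9.15, 9.04 and 9.06. Foxp3 lay above Ikzf2 in 5 of 5 arrays and Il2ra above Ctla4 in 5 of 5, whereas Ikzf2 lay above Il2ra in 3 of 5, a difference of 0.20 ± 0.25 (SD of the difference within arrays, n = 5). The levels of Ikzf2 and Il2ra therefore did not differ beyond their spread. In all, the 4 markers sat at a median percentile of 99.2, and 4 of 4 were in the top 10% by mean (10.0% of all genes).

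Of 27 measured genes of a wider Treg identity list, 27 lay above background (49.1% of all genes did) and 18 in the top 10%. The median mean of the list was 8.71 against 4.10 over all genes. The order opened with Izumo1r (10.77 ± 0.08), which encodes folate receptor 4, and Foxp3. The difference between those neighbours was only 0.07 ± 0.06 (SD of the within-array difference) but had the same sign in 5 of 5 arrays. After Ikzf2 and Il2ra came the costimulatory receptor Icos (9.61 ± 0.17) and the adenosine-forming enzyme Nt5e (9.45 ± 0.16). Tnfrsf4, which encodes OX40, read 9.39, 9.60, 9.27, 9.39 and 9.13. Tnfrsf18, which encodes GITR, read 9.00, 9.32, 9.12, 8.96 and 8.95. Both were highest in array 2. The next steps down were small: of 26 neighbouring pairs in the list, 8 kept their order in all 5 arrays and 18 did not, so the middle of the order is not resolved by these arrays.

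Among the suppressive molecules, Lrrc32, which holds latent transforming growth factor beta at the cell surface, averaged 8.14 ± 0.23. Tgfb1, its cargo, averaged 8.25 ± 0.08. Entpd1, the enzyme CD39, averaged 7.09 ± 0.18. Ebi3, a subunit of interleukin 35, averaged 6.64 ± 0.18. Il10 averaged 6.29 ± 0.50 and had the second largest SD of the Treg identity list, behind the inhibitory receptor Klrg1 (6.01 ± 0.87). The lowest member was Plagl1, a zinc finger factor, at 4.58 ± 0.23. Il10 and Ebi3 thus read below Foxp3, Il2ra and Icos in all 5 arrays, whatever their own spread.

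**Figure D1:**
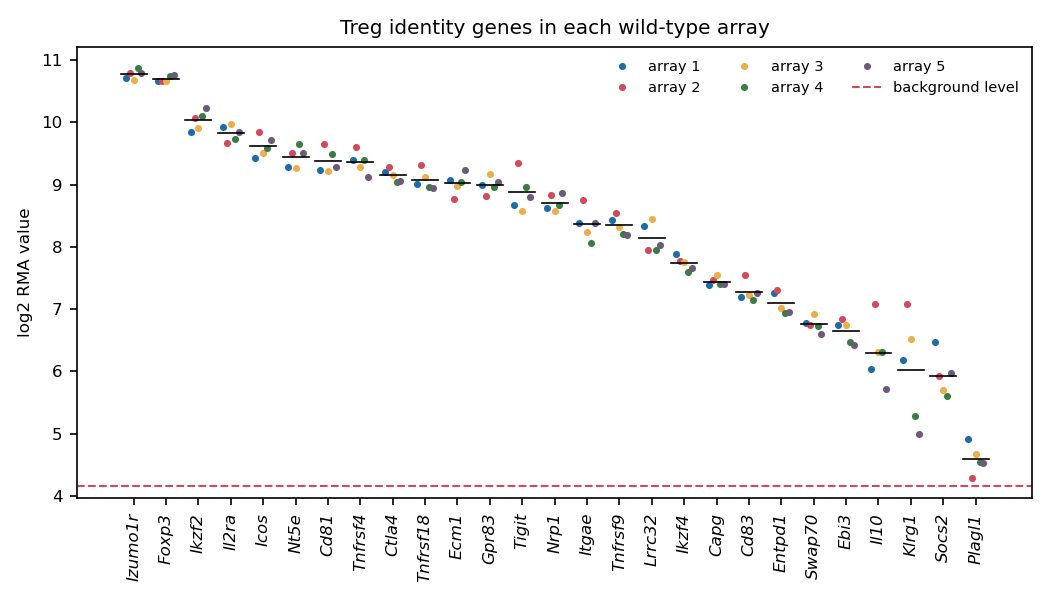
Log2 RMA values (y axis) of the 27 Treg identity genes in each of the 5 wild-type arrays (coloured points), ordered by mean (black bars), with the background level of 4.16 as a dashed line. Foxp3 and Izumo1r stand above the rest with a narrow spread, and Il10 and Klrg1 have the widest spread.

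The T cell receptor complex had a median signal of 10.39, and 8 of its 11 measured genes lay in the top 10%. Ptprc, the phosphatase CD45, averaged 11.12 ± 0.07. Cd3e averaged 11.08 ± 0.09, Cd3d 10.64 ± 0.03 and Cd3g 10.39 ± 0.12. The pair Ptprc and Cd3e kept its order in only 3 of 5 arrays. Cd5 and Cd2, which tune and aid receptor signalling, averaged 10.52 ± 0.08 and 10.40 ± 0.07, and Cd6, a related scavenger-type receptor, 8.99 ± 0.07. The coreceptor Cd4 read 9.28, 9.24, 9.17, 9.30 and 9.28. The coreceptor of cytotoxic T cells, Cd8a, read 4.84, 4.15, 4.40, 4.38 and 4.50, close to background in every array. Cd8b1 averaged 6.47 ± 0.19 and Trat1, an adaptor of the complex, 7.46 ± 0.17.

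Behind the receptor, 21 of 21 measured genes of proximal signalling lay above background (49.1% of all genes did) and 17 in the top 10%. Their median was 8.57. The adaptor Lat averaged 10.94 ± 0.12, the lipid kinase Dgka, which dampens the signal, 10.61 ± 0.04, and the adaptor Lcp2, or SLP-76, 10.12 ± 0.04. Next came negative regulators, the phosphatase Ptpn22 (9.74 ± 0.14) and the ubiquitin ligase Cblb (9.51 ± 0.07), and the kinase Prkcq (9.17 ± 0.09). The lowest were Bcl10 (7.04 ± 0.07) and Ubash3b (6.86 ± 0.27). No member was among the genes with the largest SD, taken as 5.00% of the genes above background. Parts that pass the signal on and parts that restrain it both read high. The median SD of the list was 0.0898, near the 0.0905 of the 10% of genes above background with the highest mean. Its small spread is thus that of bright genes in general.

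The receptors that share the common gamma chain bind interleukins 2, 4, 7, 9, 15 and 21. Their order was Il2rb (10.16 ± 0.03), Il2ra (9.83 ± 0.13), Il7r (8.79 ± 0.19), Il21r (8.76 ± 0.07), Il4ra (8.12 ± 0.12), Il15ra (6.66 ± 0.16) and Il9r (5.25 ± 0.16). The neighbours Il7r and Il21r traded places, with Il7r the higher in 2 of 5 arrays, and the other 5 pairs kept their order in all. Il2rb, the signalling chain shared by interleukins 2 and 15, read 10.15, 10.14, 10.21, 10.18 and 10.13. Il7r, the receptor of the survival cytokine of naive T cells, was highest in array 2 at 9.12 and lay between 8.65 and 8.77 in the others. Interleukin 2 itself was not above background: Il2 read 2.31 to 2.64.

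Downstream, the JAK, STAT and SOCS list had 17 of 18 members above background (94.4%, against 49.1% of all genes). At its top, Jak1 averaged 10.12 ± 0.07. It was followed by Stat4 (9.32 ± 0.12), Cish (9.20 ± 0.14), Stat3 (8.95 ± 0.07), Jak2 (8.43 ± 0.09) and Stat6 (8.36 ± 0.13). Cish is a target of STAT5 that feeds back on the interleukin-2 receptor, and it read 9.35, 9.29, 9.14, 8.99 and 9.22. Of the STAT5 genes, Stat5b averaged 8.01 ± 0.10 and Stat5a 6.88 ± 0.09. Socs2, another STAT5 target, had the largest SD of the list (5.93 ± 0.34), with 6.47 in array 1 and 5.60 to 5.97 in the others. Socs6 lay below background at 3.81 ± 0.04.

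Other cytokine receptors spanned the range, with 19 of 24 above background (79.2%, against 49.1% of all genes). Il6st, the shared chain gp130, averaged 9.74 ± 0.16, Ifnar2 9.31 ± 0.05 and Il18r1 9.04 ± 0.18. Il1r2, a decoy receptor that binds interleukin 1 without signalling, averaged 7.52 ± 0.50 and was highest in array 2 at 8.11 and lowest in array 3 at 6.79. Il23r, the receptor of T helper 17 cells, was the lowest of the list at 2.72 ± 0.08.

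Many of the highest means in the transcriptome, but not all, belonged to genes that serve protein synthesis, energy supply and cell shape. B2m, the light chain of major histocompatibility complex (MHC) class I, led at 12.54 ± 0.02 (12.50, 12.56, 12.55, 12.54 and 12.56). Then came the ribosomal protein genes Rplp1 (12.24 ± 0.03), Rpl13 (12.04 ± 0.06) and Rps18 (12.03 ± 0.04), and Hspa8, the constitutive heat shock cognate chaperone (11.95 ± 0.09). Of the 100 genes with the highest mean, 26 encode cytosolic ribosomal proteins, 10 lie on the mitochondrial genome, 8 belong to the actin cytoskeleton list and 4 to the translation factor list. A further 3 belong to the T cell receptor complex and 2 to Treg identity, namely Foxp3 and Izumo1r. Outside these classes, Cnbd2 (11.87 ± 0.04) and the chromatin remodeller Chd3 (11.83 ± 0.08) were among the first 10. Xist, the RNA of the inactive X chromosome, averaged 11.18 ± 0.07, and the 3 measured Y-linked genes lay below background.

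All 10 mitochondrially encoded genes measured had means between 10.66 (ND2) and 11.80 (COX1), and 10 of 10 were in the top 10%. Their partners encoded in the nucleus, the 75 genes of the respiratory chain and ATP synthase, had a median of 8.05, with 44 in the top 10% and none among the 5% with the largest SD. The 31 genes of the actin list, which lymphocytes need to migrate and to form contacts, had a median of 9.99, with 29 in the top 10%. They were led by the GTPases Rac2 (11.41 ± 0.09) and Rhoa (11.38 ± 0.05), the actin-binding protein Pfn1 (11.13 ± 0.06) and the Arp2/3 subunit Actr3 (10.83 ± 0.08). Cytosolic ribosomal proteins covered the whole scale, from Rplp1 down to Rpl10l (2.39 ± 0.05), with 39 of 64 in the top 10% and 9 of 64 not above background. What transcript amounts and what probe sets add to the width of this range was not tested. Ribosomal genes also have many processed copies that probes can share, and their values are uncertain for that reason. The median percentile of the ribosomal list was 98.8, and 90.8 when the probe sets of a gene were averaged.

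Promoters of high genes are shown next, since a short motif was more frequent in promoters above background than in those not above it. The motif CCGGAA is the core bound by ETS-family factors, of which Ets1, Elf1 and Gabpa are known in T cells. RefSeq promoters (GRCm38.p6), spanning 250 bases before to 50 after the start, matched 16990 of the genes. CCGGAA on either strand was present in 18.9% of all promoters, in 29.3% of those above background and in 8.35% of those not above it. The share in the top 10% by mean was 32.0%, near that of all promoters above background. The motif was present in 25 of 49 ribosomal protein promoters (51.0%), in 26 of 62 respiratory chain promoters (41.9%) and in 2 of 18 Treg identity promoters (11.1%). CpG dinucleotides, which the motif itself contains, had a median of 13 in all promoters and 21 in those above background. Their median was 23 in the top 10% and 5 in promoters not above background. Across these groups the shares of the motif and the CpG count thus move together. The 60 bases before the start of the 4 highest genes that hold the motif in this stretch are given from 5′ to 3′ on the strand of the gene, with the motif, or TTCCGG where it lies on the opposite strand, in capitals.
Rpl27, chr11:101442185-101442244, plus strand: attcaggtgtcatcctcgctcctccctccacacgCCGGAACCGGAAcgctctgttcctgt
Rpl19, chr11:98026650-98026709, plus strand: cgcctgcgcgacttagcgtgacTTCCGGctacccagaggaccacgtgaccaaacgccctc
Rpl41, chr10:128549169-128549228, minus strand: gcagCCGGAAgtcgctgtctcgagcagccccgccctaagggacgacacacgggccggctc
Rpl38, chr11:114668520-114668579, plus strand: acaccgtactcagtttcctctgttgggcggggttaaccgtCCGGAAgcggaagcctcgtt
Rpl27 (mean 11.76 ± 0.05) carries the motif as a direct repeat, and Rpl19 (11.75 ± 0.05) carries it on the opposite strand. Rpl41 averaged 11.73 ± 0.04 and Rpl38 11.48 ± 0.03. A match is a description of the letters and not of binding. As for the factors, Ets1 averaged 9.72 ± 0.09, Elf1 9.39 ± 0.06, Elf4 9.14 ± 0.02 and Gabpa 8.12 ± 0.07.

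Among transcription factors, the Ikaros and Runx families gave an order that all 5 arrays kept, over 7 of 7 neighbouring pairs. It ran from Ikzf2 through Ikzf1 (9.29 ± 0.07), Cbfb (8.65 ± 0.14), Ikzf3 (8.05 ± 0.15), Ikzf4 (7.73 ± 0.11), Runx1 (7.58 ± 0.13) and Ikzf5 (6.43 ± 0.09) to Runx3 (5.74 ± 0.15). Cbfb is the partner of the Runx proteins and Runx1 a partner of Foxp3. Ikzf4, or Eos, works with Foxp3 as a repressor.

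The factors that direct helper T cell fates lay in a wide order below Foxp3. Maf, which drives interleukin 10 and is found in follicular and tissue Treg cells, was second at 10.04 ± 0.32, with 9.62, 10.09, 9.84, 10.41 and 10.23 in arrays 1 to 5. Gata3 and Bcl6, of T helper 2 and follicular helper cells, averaged 7.79 ± 0.14 and 7.68 ± 0.14 and kept their order in 4 of 5 arrays. Far below came Runx3, Rora (5.72 ± 0.17), Tbx21 (5.57 ± 0.09) and Zbtb7b (5.31 ± 0.18). Eomes (3.61 ± 0.22) and Zbtb16 (4.03 ± 0.11), of cytotoxic and innate-like T cells, were not above background.

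Factors tied to effector Treg cells were all above background (16 of 16, against 49.1% of all genes), with a median of 7.09. Besides Maf and Ikzf2 they included Rel (9.11 ± 0.04), Batf (8.59 ± 0.26), Rela (8.45 ± 0.15) and Junb (8.35 ± 0.24). The lowest were Nfil3 (5.93 ± 0.30) and Prdm1, which encodes Blimp-1 (5.84 ± 0.41). Genes of quiescence and the naive state were brighter, with a median of 7.99 and 13 of 22 in the top 10%. Their order opened with the anti-proliferative genes Btg1 (9.86 ± 0.18) and Btg2 (9.70 ± 0.12), then Slfn2 (9.54 ± 0.10), Foxp1 (8.98 ± 0.22), Lef1 (8.95 ± 0.24) and S1pr1 (8.87 ± 0.14), the receptor for exit from lymph nodes. Dapl1 (3.81 ± 0.13) and Pde3b (3.22 ± 0.25) lay below background. Genes of both lists were thus read in the same samples.

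In the CD28 family, Icos lay above Ctla4, Ctla4 above Cd28 (8.63 ± 0.04) and Cd28 above Pdcd1, the receptor PD-1 (7.55 ± 0.38), each in 5 of 5 arrays. Below them were Cd274 (7.11 ± 0.16), Btla (6.68 ± 0.14), Cd86 (6.40 ± 0.12), Cd80 (5.73 ± 0.45), Pdcd1lg2 (5.25 ± 0.23), Cd276 (5.06 ± 0.14), Icosl (4.24 ± 0.22) and Vtcn1 (3.95 ± 0.28). Inhibitory receptors were led by Cd96 (9.14 ± 0.09) and Tigit (8.87 ± 0.30), which compete with the activating Cd226 (8.26 ± 0.23) for the same ligands. Havcr2, or Tim-3, was at the bottom at 2.90 ± 0.05. Tigit read 8.67, 9.35, 8.58, 8.96 and 8.80, highest in array 2.

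The TNF receptor family had 16 of 22 members above background (72.7%, against 49.1% of all genes). Cd27 (10.01 ± 0.11) stood first, above Tnfrsf4 and Tnfrsf18, followed by Tnfrsf26 (8.65 ± 0.09), the TNF receptor Tnfrsf1b (8.50 ± 0.15), which promotes Treg growth, and Tnfrsf9 (8.34 ± 0.15). Tnfrsf11a (3.02 ± 0.12) was lowest. Their ligands were led by Ltb (9.39 ± 0.10), Tnfsf8 (9.01 ± 0.07) and Tnf (8.04 ± 0.16), while Cd70 (2.50 ± 0.18) and Tnfsf18 (2.52 ± 0.12), the ligands of Cd27 and GITR, were not above background. Receptor and ligand of these 2 pairs thus lay at opposite ends of the scale.

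Chemokine receptors, which steer cells to tissues, were of middle signal (median 5.87) but of wide spread. The top was formed by 4 receptors without a stable order, each neighbouring pair of them holding in 3 of 5 arrays. They were Ccr7 (8.40 ± 0.23), which guides cells into lymph nodes, Cxcr5 (8.35 ± 0.25), which guides them to follicles, Cxcr3 (8.16 ± 0.32), of inflamed tissue, and Cxcr4 (8.06 ± 0.37), of bone marrow. Ccr8, known from skin and tumour Treg cells, averaged 7.06 ± 0.32 and Cxcr6 6.70 ± 0.45. Ccr1 and Ccr3 were at 2.69 ± 0.08 and 2.67 ± 0.30. Of the 14 members above background, 6 were in the 5% of genes with the largest SD.

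Integrins form pairs of an alpha and a beta chain, and the order of the beta chains held in 5 of 5 arrays throughout. It was Itgb1 (9.38 ± 0.17), Itgb2 (9.18 ± 0.02), Itgb7 (8.46 ± 0.04), Itgb8 (7.54 ± 0.30), Itgb3 (5.07 ± 0.00), Itgb4 (3.95 ± 0.09), Itgb5 (3.15 ± 0.06) and Itgb6 (2.48 ± 0.03). Itgb8 is the chain with which Treg cells release active transforming growth factor beta, and it read 7.16, 7.89, 7.39, 7.80 and 7.45. Its partner Itgav averaged 7.86 ± 0.23. Among alpha chains, Itgal (9.43 ± 0.09), Itga4 (9.03 ± 0.14), Itga6 (8.49 ± 0.10) and Itgae, or CD103 (8.36 ± 0.25), were the highest. Of the alpha chains, 10 of 17 lay below background and 41.2% above it, against 49.1% of all genes. The chains known from leukocytes, Itgal with Itgb2 and Itga4 with Itgb1 or Itgb7, therefore stood at the top of both lists.

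Of 35 secreted cytokines and chemokines measured, 16 lay above background (45.7%, near the 49.1% of all genes) and 3 in the top 10%. Mif (11.20 ± 0.07), Tgfb1 and Ccl5 (8.18 ± 0.31) made up those 3. Fgl2 (6.50 ± 0.20), a suppressive product of Treg cells, Il10 and Xcl1 (6.29 ± 0.37) followed. The effector cytokines Il4 (3.61 ± 0.23), Il17a (2.72 ± 0.08) and Il22 (1.88 ± 0.04) were not above background, as Il2 was not, and Ifng averaged 5.33 ± 0.23. Il21 (4.58 ± 0.42) and Il13 (4.30 ± 0.36) lay just above background. Cytokines that define helper effector cells thus read at or near background, apart from Ifng.

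Cell division and metabolism gave a mixed order. The cell cycle list had 33 of 36 members above background (91.7%, against 49.1% of all genes), but 4 in the top 10%. Pcna (9.70 ± 0.15), Ccnd2 (9.21 ± 0.09) and the inhibitor Cdkn1b (8.81 ± 0.09) led. The proliferation marker Mki67 read 6.21, 6.76, 6.06, 6.28 and 6.47. In the Hippo list, Stk38 (8.41 ± 0.17) and Rassf5 (8.35 ± 0.06), a binding partner of Mst1, were highest and Stk4, which encodes Mst1, averaged 7.91 ± 0.10. The transcriptional end of the pathway was low, with Yap1 at 4.51 ± 0.12, Wwtr1 (TAZ) at 4.14 ± 0.13 and Tead1 at 3.66 ± 0.08. In the list of interferon-responsive genes, Ifi27 (8.85 ± 0.04) and Zbp1 (8.77 ± 0.09) led and Rsad2 (3.45 ± 0.08) and Mx1 (3.28 ± 0.19) were not above background.

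Markers of other cell types were counted above and below the background level. Above background were 9 of 17 B and plasma cell markers, 12 of 19 myeloid, 3 of 13 neutrophil, 2 of 8 natural killer cell, 6 of 10 CD8 T cell, 4 of 8 thymocyte, 3 of 6 erythroid and 3 of 13 stromal and endothelial markers. Against 49.1% of all genes, the shares were near or over that of all genes for the B cell, myeloid, CD8 T cell, thymocyte and erythroid lists, and lower for the neutrophil, natural killer cell and stromal lists. None of the B cell, neutrophil, natural killer cell, thymocyte or erythroid markers was in the top 10%. The exceptions in the top 10% were Ctss (mean 10.0, SD 0.06) of the myeloid list, Ccl5 of the CD8 list and Pecam1 (8.16 ± 0.17) of the endothelial list, genes that T cells are also known to use. Members at or below background included Pax5 (4.02 ± 0.26), Adgre1 (3.70 ± 0.06), Ly6g (3.44 ± 0.16), Ncr1 (3.03 ± 0.08), Dntt (3.24 ± 0.11) and Cdh5 (3.44 ± 0.28). Other members of the same lists lay above it, such as Cd79b of B cells and S100a8 (mean 5.16) and S100a9 (5.83) of neutrophils. The low members alone therefore do not tell that a cell type was absent. The immunoglobulin constant gene Ighm, at 10.28 ± 0.16, lay far above the listed B cell markers, the highest of which averaged 6.59, and 7 probe sets carry its name.

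**Figure D2:**
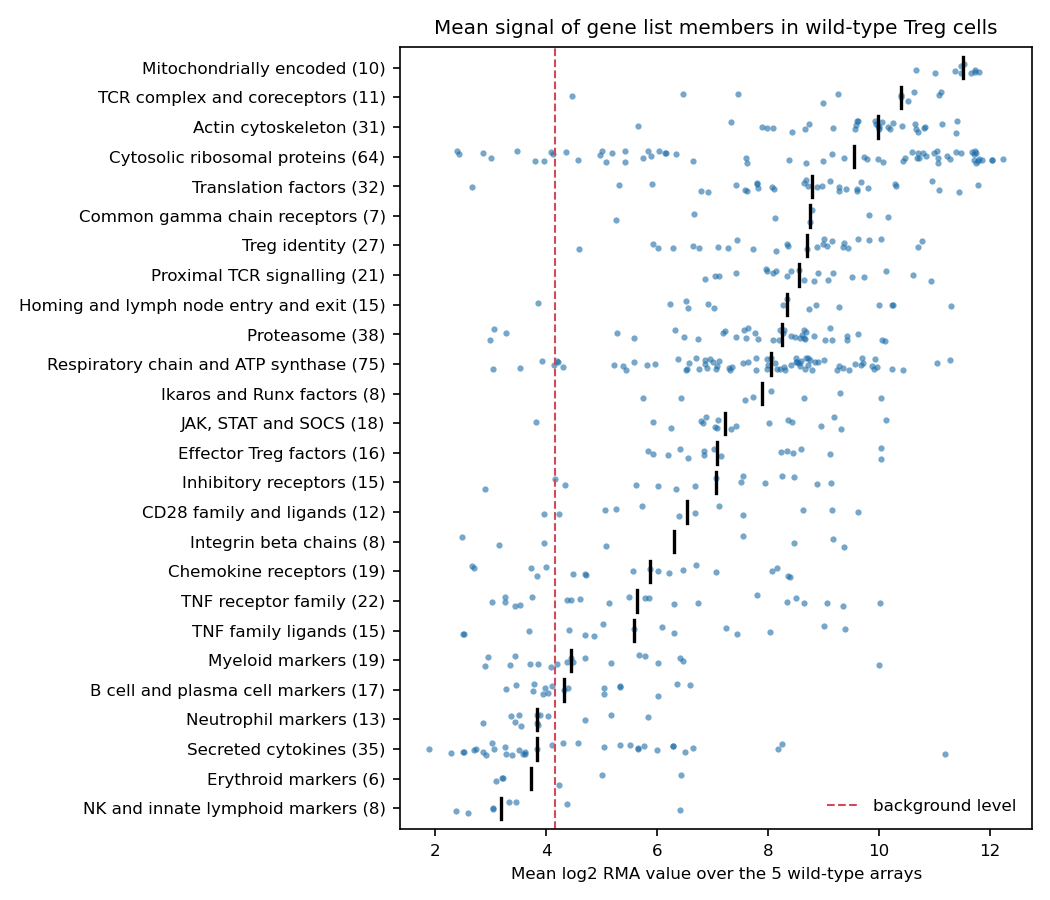
Mean log2 RMA value over the 5 wild-type arrays (x axis) of each member (points) of 26 gene lists, with the list median as a black bar, the number of measured members in brackets and the background level as a dashed line. T cell receptor, actin, ribosomal and mitochondrial genes have the highest medians, and the markers of other cell types and the secreted cytokines centre near or below the background level.

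Spread between the arrays was small for most genes. Among the 10895 genes above background the median SD was 0.123 log2 units, 37.4% had an SD under 0.1, 88 exceeded 0.5 and 14 exceeded 1. Spread fell with signal, from a median SD of 0.151 in the 10% of these genes with the lowest mean to 0.0905 in the 10% with the highest. The T cell receptor complex (median SD 0.077), the translation factors (0.074) and the actin list (0.067) had members steadier than that overall median. Treg identity genes (0.164), effector Treg factors (0.214) and chemokine receptors (0.243) were above it.

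**Figure D3:**
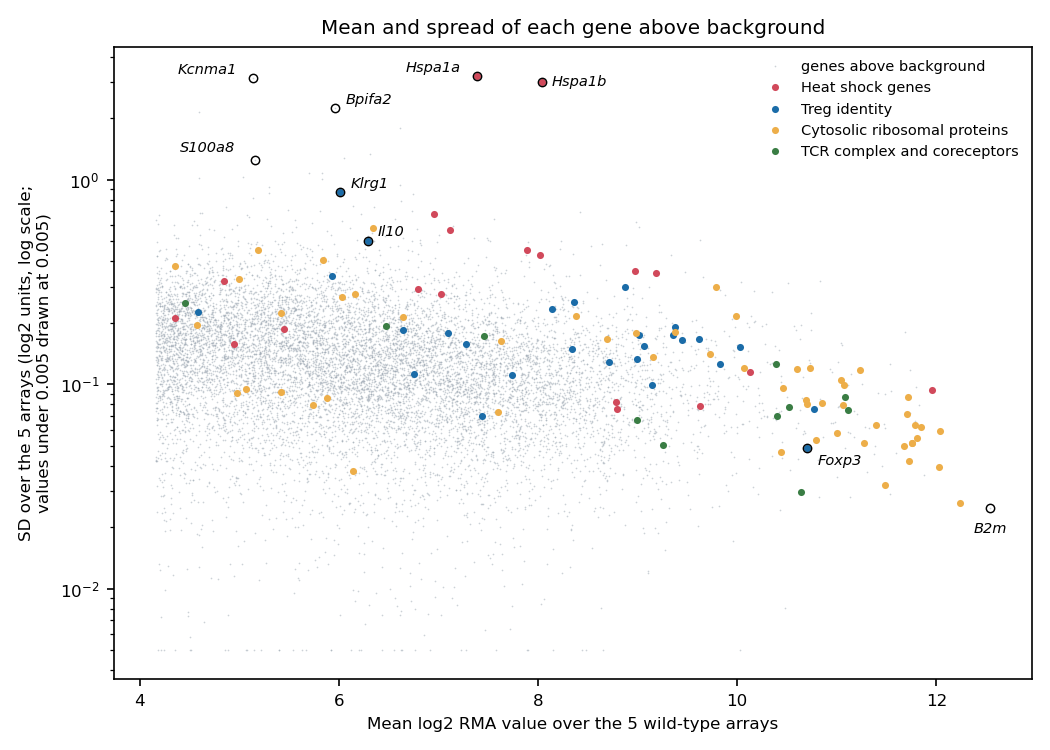
Mean log2 RMA value (x axis) and SD over the 5 wild-type arrays (y axis, log scale) for each gene above background, with 4 gene lists in colour and named genes circled. Hspa1a, Kcnma1 and Hspa1b have an SD above 3, whereas Foxp3 and B2m combine a high mean with an SD of 0.05 and 0.02.

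A pair of heat shock genes had the largest and the third largest SD, with Kcnma1 (SD 3.14) between them. Hspa1a and Hspa1b encode nearly identical forms of the inducible chaperone HSP70, which cells make when proteins unfold. Hspa1a read 5.18, 2.80, 9.14, 9.88 and 9.93 in arrays 1 to 5 (SD 3.23), and Hspa1b read 6.70, 3.32, 9.77, 9.90 and 10.48 (SD 3.02). Arrays 3, 4 and 5 were high and arrays 1 and 2 low for both genes, with no overlap, and both genes lay below background in array 2. Without array 2, which was the lowest, the SD of Hspa1a was 2.26 and that of Hspa1b 1.70. As the genes are near copies, their probe sets may read each other's transcripts. The 250 bases before the start of each gene are shown because the copies extend into their promoters, with the heat shock motif GAANNTTC in capitals.
Hspa1a, chr17:34972157-34972406, minus strand: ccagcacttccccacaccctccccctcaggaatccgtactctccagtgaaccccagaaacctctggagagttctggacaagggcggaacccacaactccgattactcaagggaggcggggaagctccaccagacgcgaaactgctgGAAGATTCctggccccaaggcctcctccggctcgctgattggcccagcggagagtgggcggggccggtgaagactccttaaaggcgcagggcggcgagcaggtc
Hspa1b, chr17:34959239-34959488, minus strand: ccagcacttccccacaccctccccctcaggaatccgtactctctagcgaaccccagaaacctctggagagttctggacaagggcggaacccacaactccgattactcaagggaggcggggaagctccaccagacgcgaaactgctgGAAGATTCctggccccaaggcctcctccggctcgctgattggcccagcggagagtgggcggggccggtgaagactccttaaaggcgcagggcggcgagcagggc
The stretches were identical at 247 of 250 aligned bases (98.8%). Each holds 1 match to GAANNTTC, the pair of facing repeats to which heat shock factor binds, searched on both strands over 300 bases. The motif occurred in 7.09% of all promoters, in 5.59% of those above background and in 7 of 16 promoters of the heat shock list (43.8%).

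Other heat shock genes were also highest in array 5, with a smaller spread. Of 19 list members above background, 9 were in the 5% with the largest SD, a count that became 4 without array 5 and lay between 8 and 11 without any other array. Dnajb1, the cochaperone of HSP70, read 6.28, 6.21, 7.26, 7.25 and 7.77. Hsph1, its exchange factor, read 6.70, 6.58, 7.06, 7.20 and 8.02. Both were lowest in array 2 and highest in array 5. Stip1, which links the HSP70 and HSP90 chaperones, read 7.65, 7.62, 7.63, 7.87 and 8.67, so that array 5 stood apart. The chaperones of the endoplasmic reticulum were steadier, with Hspa5 at 9.62 ± 0.08 and Hsp90b1 at 10.13 ± 0.12. The mean deviation of all 19 list members from their gene means was -0.28, -0.70, 0.15, 0.24 and 0.59 in arrays 1 to 5. It includes Hspa1a and Hspa1b, which have the largest SDs of the list and weigh most in it, so it does not describe the other members alone.

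Immediate early genes, which respond within minutes to stimulation or handling, had another order of arrays. Fosb read 6.55, 5.78, 7.55, 6.08 and 5.81, and Fos read 6.89, 6.20, 7.63, 6.89 and 6.30, with array 3 the highest and array 2 the lowest for both. Ier2 read 6.78, 6.84, 6.92, 5.92 and 5.85, and Cd69, an early activation marker that also keeps cells in tissue, read 8.64, 8.59, 8.76, 7.89 and 7.87. For Ier2 and Cd69 arrays 1 to 3 lay above arrays 4 and 5 without overlap. The list had 5 of 23 members in the 5% with the largest SD (4 or 5 without any 1 array), while Egr1 (7.31 ± 0.06), Nr4a1 (7.89 ± 0.11) and Nr4a3 (7.24 ± 0.05), which report T cell receptor signalling, were narrow. Zfp36 (10.72 ± 0.13) was the brightest of the list.

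Promoters of the variable genes differed from the rest in the share with a TATA box. TATAAA within bases 40 to 15 before the start, on the strand of the gene, was found in 2.63% of all promoters and 1.25% of those above background. It was found in 19 of 336 promoters among the 5% of genes with the largest SD (5.65%) and in 3 of 446 among the 5% with the smallest (0.673%). No test was made of these shares. Genes of large spread are dimmer. Promoters not above background, which the ranking by spread left out, held the motif in 4.03%, and those in the top 10% by mean in 1.37%. The share among the dimmer genes above background was not looked at. What signal adds to the difference by spread was not tested. The 60 bases before the start are shown for the 4 genes of largest SD that hold the motif, which is in capitals.
S100a8, chr3:90669011-90669070, plus strand: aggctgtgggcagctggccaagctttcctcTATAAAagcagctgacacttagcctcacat
H1f5, chr13:21780626-21780685, minus strand: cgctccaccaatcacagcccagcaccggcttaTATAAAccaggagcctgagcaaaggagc
H2-Q10, chr17:35470029-35470088, plus strand: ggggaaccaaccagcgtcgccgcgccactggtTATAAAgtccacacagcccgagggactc
Fos, chr12:85473830-85473889, plus strand: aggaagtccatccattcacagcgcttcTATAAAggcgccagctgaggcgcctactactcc
S100a8 encodes a subunit of the neutrophil protein calprotectin, H1f5 a linker histone made during DNA replication, and H2-Q10 a secreted MHC class I molecule known from liver. H1f5 read 7.63, 7.59, 6.68, 5.85 and 5.99, with arrays 1 and 2 the highest. H2-Q10 read 8.85, 8.21, 8.68, 9.40 and 9.79, with arrays 4 and 5 the highest. Its probe set may share probes with other class I genes, which are near copies of each other.

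Several of the most variable genes are known from B cells, plasma cells and neutrophils. Jchain, which joins secreted immunoglobulins, read 6.26, 5.97, 4.59, 3.85 and 4.55. Ighg3 read 8.85, 8.22, 5.49, 5.00 and 5.50. Over the 20 measured immunoglobulin genes the mean log2 value was 5.57, 4.89, 4.23, 4.22 and 4.27 in arrays 1 to 5, highest in array 1 and next in array 2. The 17 B and plasma cell markers averaged 5.04, 4.70, 4.57, 4.42 and 4.42 in the same arrays. Cd79b, a chain of the B cell receptor, read 7.30, 6.66, 6.63, 6.36 and 6.01, and Ms4a1, or CD20, read 5.11, 4.54, 4.52, 3.96 and 3.81. Of the B cell markers above background 6 of 9 were in the 5% with the largest SD, and 2 of 8 without array 1, while 10 of 11 immunoglobulin genes became 7 of 9.

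MHC class II genes, which B cells and dendritic cells use to present antigen, were also highest in array 1. The 8 measured genes averaged 6.32, 5.86, 5.99, 5.83 and 5.65 in arrays 1 to 5. Array 3 was thus second, whereas array 2 was second for the B cell markers. H2-Ab1 read 8.70, 7.77, 7.95, 7.76 and 7.34, and H2-Aa read 7.08, 6.07, 6.04, 5.87 and 5.52, with array 1 the highest and array 5 the lowest for both. For neutrophils, S100a8 read 6.02, 6.89, 4.58, 3.96 and 4.35 and S100a9 read 6.76, 6.94, 5.62, 4.55 and 5.28. Slpi, a protease inhibitor, read 7.31, 7.80, 5.95, 5.52 and 6.51. Arrays 1 and 2 stood above the others for all 3 genes. The granule genes Mpo (3.86 ± 0.12) and Elane (3.84 ± 0.15) were below background, and the 13 neutrophil markers averaged 4.07, 4.36, 3.90, 3.78 and 3.82. Whether cells of these types contributed to arrays 1 and 2 was not tested.

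A few variable genes belonged to no list. Kcnma1, a calcium-activated potassium channel, read 3.47, 3.25, 3.25, 10.58 and 5.14. It was thus bright in array 4 only, and without that array its SD was 0.91. A second probe set of the gene, not used for its rank, read 2.60 to 2.80 in the 5 arrays. Bpifa2, a secreted protein of the parotid gland, read 8.26, 5.36, 8.31, 4.54 and 3.34. Smr3a, another salivary gene, whose mean of 3.94 was not above background, read 5.75, 3.10, 5.52, 2.84 and 2.49. Arrays 1 and 3 were the highest for both. The 18 measured salivary genes, a list put together after the values of Bpifa2 were seen, had 4 members above background (22.2%, against 49.1% of all genes).

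Some of the spread fell on genes of Treg function. Klrg1, a receptor of terminally differentiated Treg cells, read 6.18, 7.09, 6.53, 5.28 and 4.99. Il10 read 6.04, 7.08, 6.31, 6.31 and 5.72. Without array 2 its SD was 0.28, against 0.50 over all 5. Bhlhe40, a factor induced on activation, read 8.05, 9.11, 8.16, 8.0 and 7.85, with an SD of 0.13 without array 2. Prdm1 read 5.45, 6.52, 5.61, 5.83 and 5.80. Lilrb4a, an inhibitory receptor of activated cells, read 7.58, 9.29, 7.95, 8.91 and 8.39. Cxcr6 read 6.57, 7.41, 6.83, 6.37 and 6.30, and Cxcr3 read 8.03, 8.70, 7.94, 7.95 and 8.18. These 7 genes, each highest in array 2, were chosen after their values were seen, so the tally is no result. Maf, also an effector factor, read 9.62, 10.09, 9.84, 10.41 and 10.23, highest in array 4.

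Scores of whole lists are given next. The lists hold some of the genes just named, such as Prdm1, Cxcr3 and Cxcr6, so the scores are no separate support. The mean deviation of effector Treg factors from their gene means was -0.10, 0.20, -0.01, -0.01 and -0.08 in arrays 1 to 5. That of chemokine receptors was 0.00, 0.19, 0.00, -0.07 and -0.13, and that of inhibitory receptors -0.03, 0.19, -0.02, -0.02 and -0.11. Quiescence and naive state genes were at 0.10, -0.13, 0.13, -0.04 and -0.06. Their sign was opposite to that of the effector factors in arrays 1, 2 and 3, whereas both lists lay below their means in arrays 4 and 5. Lef1 read 9.07, 8.63, 9.16, 9.11 and 8.75, and Actn1, a cytoskeletal gene of naive T cells, read 8.42, 7.47, 8.42, 8.05 and 8.03, both lowest in array 2. Ccr7 was also lowest there, at 8.07 against 8.31 to 8.67. These 3 were named after their values were seen, and Il7r, of the same list, was highest in array 2, at 9.12 against 8.65 to 8.77. The count of chemokine receptors among the 5% of genes with the largest SD was 2 without array 2 instead of 6, and that of secreted cytokines 2 instead of 6. The wider Treg identity list was also highest in array 2, at 0.02, 0.14, 0.00, -0.08 and -0.08. The mean of the 4 defining markers was 9.91, 9.92, 9.92, 9.90 and 9.98, a mean over members that differed in order, since Ctla4 was highest and Il2ra lowest in array 2. The share of naive and activated Treg cells in each sample was not measured, and its part in these differences was not tested.

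**Figure D4:**
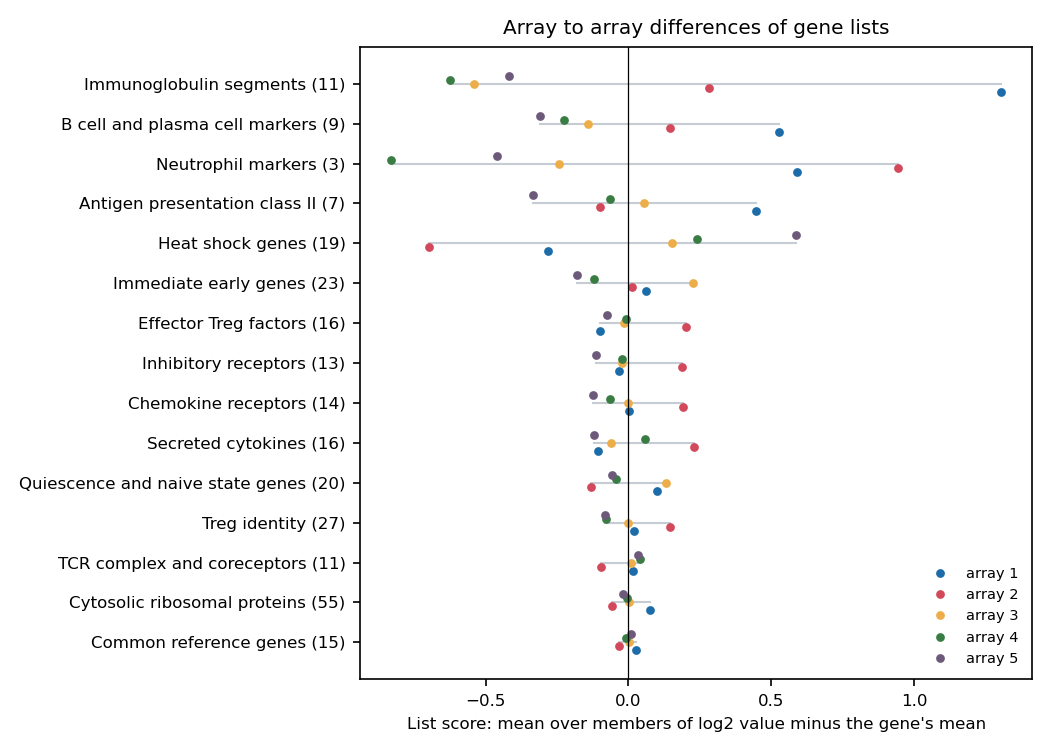
Score of 15 gene lists (x axis, deviation from the mean of each gene over the 5 arrays, averaged over members above background, number of members in brackets) in each wild-type array (coloured points). Immunoglobulin, B cell and class II genes are highest in array 1, heat shock genes are lowest in array 2 and highest in array 5, and effector Treg factors, inhibitory receptors and chemokine receptors are highest in array 2, whereas the reference genes lie between -0.03 and 0.03.

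At the other end, the smallest spreads could not be read as steady expression without care. In 21 genes above background the value was identical in all 5 arrays, among them Id3 (6.43), an inhibitor of E proteins, Med12 (8.49) of the Mediator complex and Thoc2 (8.15) of RNA export. In 29.6% of the genes above background at least 2 arrays shared a value to all deposited digits. Over the 4 arrays that the choice did not use, the 21 genes had a median SD of 0.0777, against 0.171 over all genes above background, and 6 of the 21 (28.6%) were in the lowest 5%. Id3 had an SD of 0.80 there. Ties of this kind are in the deposited values, and their origin was not tested. Among genes with 5 distinct values, the smallest SD was that of Itm2b, a membrane protein, at 10.48, 10.48, 10.47, 10.49 and 10.49. It was followed by Ergic3 (8.06 ± 0.01), of vesicle traffic, Wtap (7.04 ± 0.01), of the RNA methylation complex, Timm23 (7.66 ± 0.01), of mitochondrial import, and Brd7 (7.64 ± 0.01), of chromatin.

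Genes in common use as references differed in spread. B2m and Sdha (8.71 ± 0.02) had the narrowest values. Gapdh (10.53 ± 0.04) and Eef1a1 (11.45 ± 0.04) were also narrow. Actb (8.67 ± 0.14), Hprt (7.93 ± 0.14) and Tbp (6.74 ± 0.21) exceeded the median SD of genes above background.

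Spread in the other 4 arrays, which the ranking did not use, served as a description of how far a gene's rank by spread carries over. The 100 genes of largest SD had a median SD of 0.592 in the wild-type arrays and 0.450 in the others, against 0.171 over all genes above background, and 53 of them were in the top 5% there. Of the 545 genes in the top 5% by SD, 151 (27.7%) were in the top 5% of the other arrays too. The 100 genes of smallest SD had a median of 0.00748 in the wild-type arrays but 0.112 in the others, and 16 were in the lowest 5% there. Across genes, Spearman's rho between the 2 spreads was 0.28 over 10895 genes, which are not independent of each other. Hspa1a (SD 3.12), Kcnma1 (4.11) and S100a8 (2.84) also had SDs above 1 in the other arrays. The SDs of Jchain (0.42) and Fos (0.21) there were smaller than in the wild-type arrays but above the 0.171 over all genes, and that of Smr3a (0.15) was below it. The other arrays carry another genotype, and what this adds to their spread cannot be told apart.

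**Figure D5:**
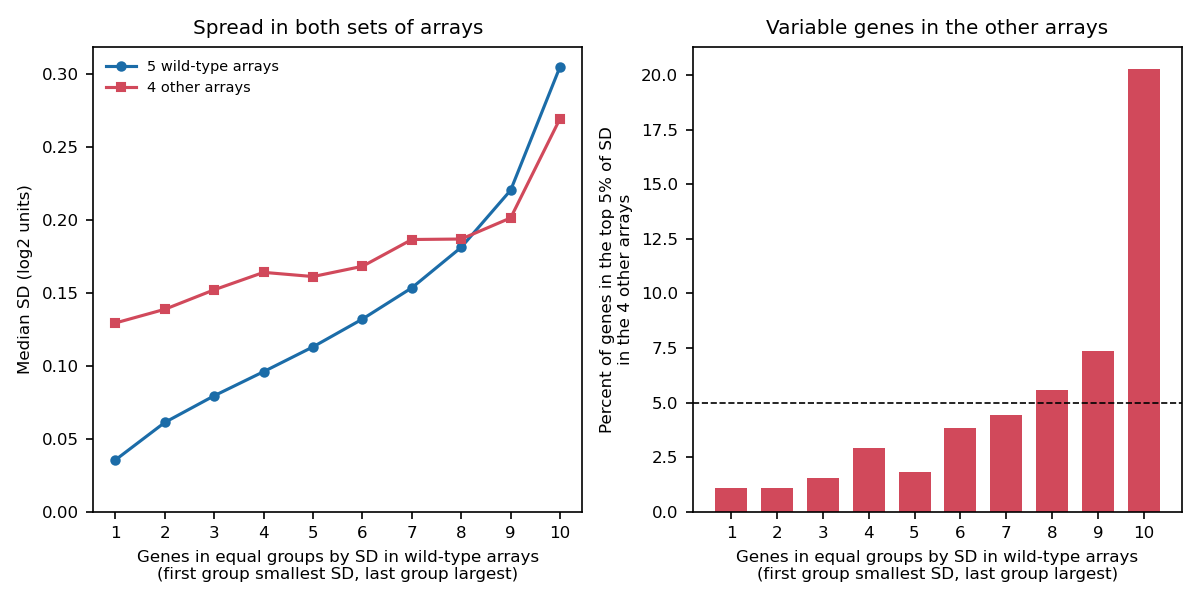
Genes above background in 10 equal groups by SD over the 5 wild-type arrays (x axis, from smallest to largest). The left panel gives the median SD in log2 units in the wild-type arrays (circles) and in the 4 other arrays (squares), and the right panel the percentage of each group among the 5% of genes with the largest SD in the other arrays (dashed line at 5%), which is 20.3% in the last group.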

How the data were processed

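The deposited values are log2 intensities of 41345 probe sets in 9 samples, which the authors computed by RMA (Affymetrix Expression Console, version 1.1, according to the submitters' processing notes). RNA was amplified with NuGEN kits, per the labels' protocols. With no scanner values, no detection call was made, and precision is limited by the number of arrays, 5. Of the probe sets, 23521 had 1 gene symbol, 1814 several and 16010 none listed in the platform annotation. Symbols were updated through 23328 matched identifiers (RefSeq, GRCm38.p6), leaving 22180 genes. Genes without such a probe set are not named.

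Means, SDs and gene list scores over the 5 wild-type arrays were computed with pandas 2.3.3, numpy 2.4.6 (Python 3.11.15), SciPy 1.17.1 for correlations, and matplotlib 3.10.9 for plots. The spread ranking was tested on simulated data. No hypothesis test was made: there is 1 group, and a sign-flip test over 5 arrays cannot give a two-sided p below 0.0625. Members and lists were chosen with earlier results of these data known. Symbol patterns of 4 lists (mitochondrial, histone and both antigen receptor lists) and 1 symbol of the glycolysis list were corrected after the files were seen.

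Named genes were the 4 markers, up to 20 at each end of mean and SD (leaving out gene models, small RNA genes and receptor segments), all members of lists of up to 12, and for longer lists the 6 highest, 2 lowest and 3 most variable. A selection of these is printed, and further genes, named for their role, were chosen after their values were seen. Alternatives were other ways to join probe sets, quantile normalisation, median centring, a stricter background, other measures of spread and leaving out each array.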

Additional observations from a re-analysis of the deposited data

Results flagged for a closer look

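Within groups of 5 arrays, 1 array lay far from the other 4 for 25 of the 236 genes looked at and for 2 of 55 gene lists, measured by its gap to the nearest other array over the whole range. By chance the rule would flag about 1 in 20 groups. Some of the genes were named for their large spread or after their values were seen, and the lists hold some of them. The shares can therefore not be set against that rate. No test was made of either share. Many of the flagged ranges are narrow, and several of the genes have values that arrays share. Wide gaps were found for Kcnma1, at 10.58 in array 4 against 3.25 to 5.14, for Stip1, at 8.67 in array 5 against 7.62 to 7.87, and for Bhlhe40, at 9.11 in array 2 against 7.85 to 8.16.

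Array 2 was also apart for Il7r (9.12), Gata3 (8.04) and Cd70 (2.82) on the high side. On the low side it was apart for Lat (10.73), Il6st (9.45), Rpl19 (11.66) and Itgb4 (3.80). Array 3 was high for Il9r (5.53), Stat5b (8.19), Rplp1 (12.29), Ikzf5 (6.58), Tnfrsf26 (8.81), Tnfrsf11a (3.22) and Stk4 (8.09), and low for Itgb2 (9.14) and Tead1 (3.52). Array 1 was low for Cd28 (8.55) and Itgb6 (2.43), and array 4 for Adgre1 (3.59). Array 5 was low for Itgb3 (5.07) and Zbp1 (8.60) and high for Eef1a1 (11.52). The values of Il7r ranged from 8.65 to 8.77 in the other arrays and those of Stat5b from 7.96 to 7.97.

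The mean deviation of the T cell receptor complex genes from their gene means was -0.097 in array 2 against 0.008 to 0.040 in the others. That of the common gamma chain receptors was 0.102 in array 3 against -0.039 to -0.013. No other list of the 55 looked at was set apart in this way.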

How the results depend on the processing

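The 100 genes of highest mean shared 72 members with the 100 found when a gene's probe sets were averaged and 99 or 100 with those found without any 1 array. The 100 of largest SD shared 74 to 86 without any 1 array and 91 to 95 under quantile normalisation, median centring or averaged probe sets. By the median absolute deviation, which gives 1 deviating array no weight, 53 were shared. The 100 of smallest SD depended on the processing, sharing 22 under quantile normalisation, 6 under median centring, 35 after subtracting the running median at that mean and 40 to 53 without any 1 array. With genes limited to 5 distinct values, an alternative chosen after seeing the data, 5 were shared. A background level at the 99th percentile of the chemosensory genes left 5894 genes above it instead of 10895.

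The median percentile of the 4 given markers was 99.4 with probe sets averaged and 99.1 to 99.2 without any 1 array. Median percentiles of the gene lists stayed within the spread between arrays in 310 of 336 alternatives. The widest moves were 8.8 percentile points for immunoglobulin genes without 1 array and 10.8 for T cell receptor segments with probe sets averaged. No paired analysis was possible because the values describe 1 group and come from no test. Signal over background could not be judged without scanner values, so differences near the background level are the least certain.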
